A study of Mus musculus with 6 samples.

Results

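Heart muscle keeps ATP available between its mitochondria and its myofibrils through phosphate transfer enzymes, and 9 genes of that system and of the sensor that reads it were followed here in hearts without PKM1, the muscle form of pyruvate kinase. They were the adenylate kinases *Ak1* and *Ak3*, the creatine kinases *Ckm*, *Ckb* and *Ckmt2*, the creatine transporter *Slc6a8*, and the AMP-activated protein kinase (AMPK) subunits *Prkaa1*, *Prkaa2* and *Prkag2*. The genes were chosen by name, and all 9 were found among the 13809 gene symbols of the deposited count table.

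Bulk RNA-seq libraries depleted of ribosomal RNA were made from mouse hearts at embryonic day 18.5 (E18.5), 3 from wild type (WT) and 3 from *Pkm1*-knockout (KO) embryos. The KO embryos were homozygous for a small CRISPR/Cas9 deletion in the *Pkm* exon that only the *Pkm1* transcript uses, were offspring of heterozygous parents and carried the deletion in every tissue, so the loss was not limited to heart muscle cells. The tissue is heart in the labels and ventricular tissue in the study's text; neither gives the sex of these embryos or how many hearts went into a library. The mutation was made in zygotes of BDF1 hybrid mice (DBA/2 by C57BL/6J), and the background on which the line was later bred is not stated. The columns of the table carry the genotype but no replicate number, and the 3 libraries of each genotype are called a, b and c here.

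Creatine kinases move the terminal phosphate of ATP onto creatine and back, so that phosphocreatine made at the mitochondria can refill ATP at the contractile filaments. Adenylate kinases turn a pair of ADP molecules into ATP and AMP, which recovers ATP and at the same time raises the AMP signal of a falling energy supply. AMPK, a complex of a catalytic alpha, a scaffolding beta and a nucleotide-binding gamma subunit, reads AMP and ADP against ATP and phosphorylates enzymes of ATP production and use. Its activity is set by nucleotides and by phosphorylation, neither of which RNA-seq measures.

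WT libraries held 15597756 to 19875546 and KO libraries 15567624 to 18577404 counts in all. The limit of detection was set at 3 counts, or 0.151 to 0.193 CPM (counts scaled to library size, elsewhere also by TMM, edgeR's correction for differences in composition), which covers counting error only. *Pkm*, the targeted gene, was at 1294, 1296 and 1366 CPM in the WT and at 547, 530 and 549 CPM in the KO libraries, although a count per gene cannot tell *Pkm1* and *Pkm2* transcripts apart. Ventricular cardiomyocyte genes (*Myl2*, *Myl3*, *Myh7*, *Tnnt2* and 6 others) summed to 41090 to 43515 CPM in WT and 39321 to 39926 CPM in KO hearts. At an adjusted p under 0.05, 7 of the 10 were lower and 2 higher in KO hearts, against 15.7% and 14.6% of all genes. The groups also differed in sex-linked transcripts: *Xist* had 73 to 102 counts in the WT and 36933 to 42574 counts in the KO libraries, while *Kdm5d*, *Eif2s3y*, *Ddx3y* and *Uty*, on the Y chromosome, had 516 to 1866 counts in each WT library and 0 in each KO library. Genotype and the sex of the embryos therefore cannot be told apart in any value below. Among WT libraries, the gene counts of WT c differed more from WT a and WT b than those differed from each other (chi-square per degree of freedom 3.24 and 3.76 against 1.55). Pairs of KO libraries were at 1.62, 1.84 and 1.88, so WT a and WT b were the most alike. An alternative fit took WT a and WT b, summed, as 1 library. Calls of named adenylate kinase, creatine and AMPK genes that changed without WT c are given below.

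The largest change among the 9 genes was in *Ckmt2*, the sarcomeric mitochondrial creatine kinase, which fell by 36.1% in KO hearts. *Ckm*, the cytosolic creatine kinase of muscle, fell by 8.14%. *Prkaa1* and *Prkag2*, an AMPK catalytic and an AMPK nucleotide-binding subunit, were higher by 14.3% and 8.95%. These 4 of the 9 genes (44.4%) passed an adjusted p of 0.05 in the quasi-likelihood test of edgeR, Benjamini-Hochberg adjusted over 13804 genes, against 30.3% of all genes tested. By direction, 2 of the 9 were lower, where 15.7% of all genes were, and 2 were higher, where 14.6% were. The WT and KO libraries did not overlap for the same 4 genes, and for 42.4% of all genes. The median log2 fold change was -0.01 over the 9 genes and 0.00 over all genes (to 2 decimals). *Ckmt2* alone passed the test with a change of at least 1.5-fold; of all genes, 3.2% did so in the lower and 2.99% in the higher direction.

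**Figure D1:**
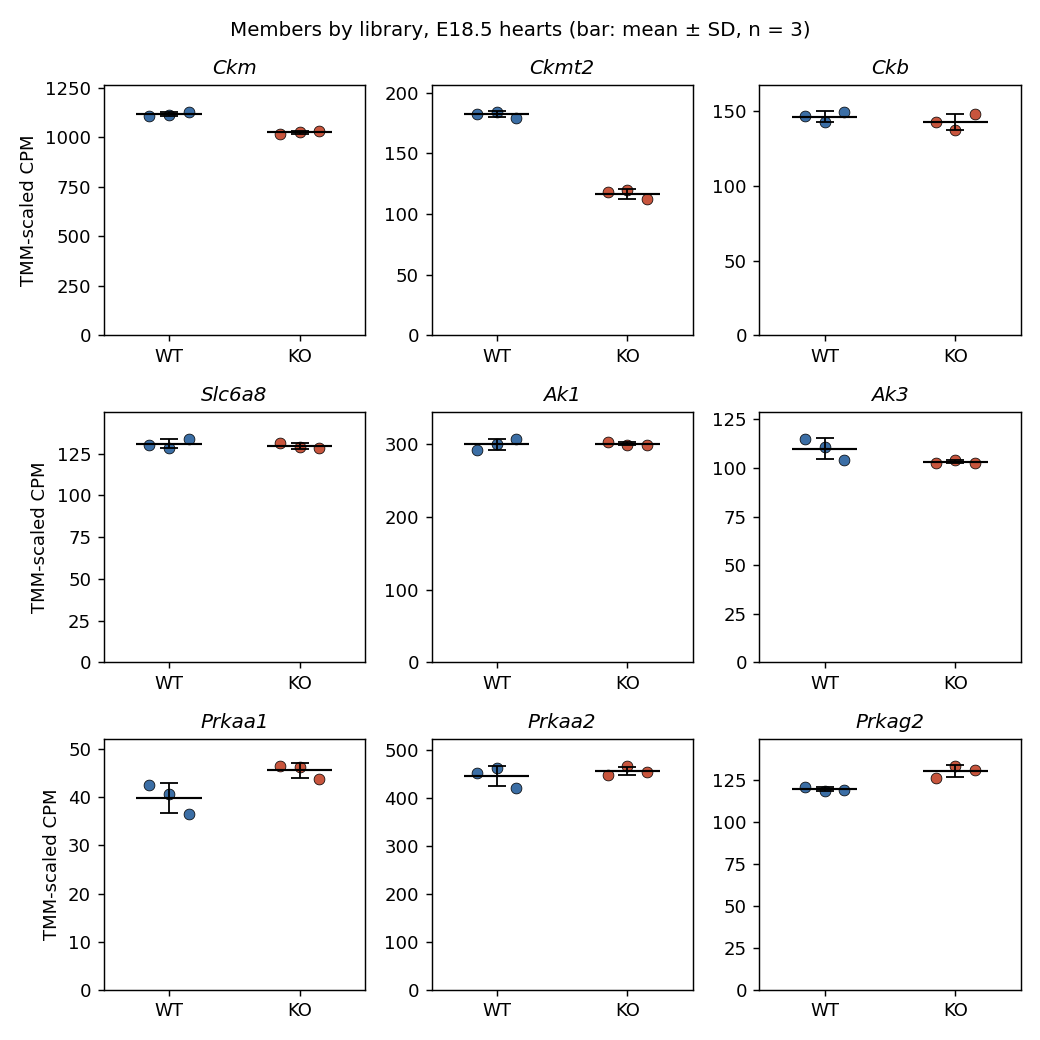
TMM-scaled CPM (vertical axes, each starting at 0) of the 9 genes in the 3 WT (blue) and 3 KO (red) libraries, with points for libraries and bars for mean ± SD (n = 3). The KO libraries of *Ckmt2* lay at 112 to 119 CPM, far under the WT libraries at 180 to 184 CPM, while those of *Ak1* and *Slc6a8* overlapped with the WT libraries.

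The promoters of the creatine kinases are shown because *Ckmt2* and *Ckm* fell while *Ckb* did not pass the test, and because the study deals with NFYa, a subunit of the factor NFY, whose core motif is CCAAT. The sequences are the 250 bases before each start site in the RefSeq promoter table (GRCm38.p6), 5′ to 3′ on the strand of the gene. Capitals mark CCAAT or, for the other strand, ATTGG. The *Ckmt2* sequence lies at chr13:91876886-91877135 on the minus strand, *Ckb* at chr12:111672339-111672588 on the minus strand and *Ckm* at chr7:19410844-19411093 on the plus strand, where the RefSeq start lies inside the GENCODE gene.
Ckmt2: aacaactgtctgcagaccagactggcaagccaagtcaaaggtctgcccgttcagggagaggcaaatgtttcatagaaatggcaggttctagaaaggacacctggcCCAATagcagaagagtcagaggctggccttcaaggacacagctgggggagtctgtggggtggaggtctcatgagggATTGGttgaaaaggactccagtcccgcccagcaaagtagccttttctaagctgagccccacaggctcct
Ckb: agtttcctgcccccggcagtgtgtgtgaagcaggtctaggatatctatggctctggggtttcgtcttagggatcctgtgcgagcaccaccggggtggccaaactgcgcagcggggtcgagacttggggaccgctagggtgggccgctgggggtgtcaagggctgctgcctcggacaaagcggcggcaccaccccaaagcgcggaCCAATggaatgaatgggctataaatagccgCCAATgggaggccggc
Ckm: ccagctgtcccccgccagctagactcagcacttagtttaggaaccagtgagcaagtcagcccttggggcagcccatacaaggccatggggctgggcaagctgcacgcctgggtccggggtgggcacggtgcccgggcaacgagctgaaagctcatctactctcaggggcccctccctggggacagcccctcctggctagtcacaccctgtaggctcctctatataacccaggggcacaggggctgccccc
In *Ckmt2*, whose RNA fell most, the motif began 145 bases before the start site on the strand of the gene and 69 bases before it on the other strand. In *Ckb*, whose RNA differed least among the creatine kinases, it began 46 and 16 bases before the start. No match occurred in the window of *Ckm*. The search covered 300 bases, to 50 bases after the start, on both strands. Over the 8 of the 9 genes with an entry in the table (all but *Slc6a8*), it found the motif in 3 genes, the third being *Prkag2*, and in 4 of their 13 promoter windows (30.8%). Of all 32851 promoters in the table, 37.4% held it. In 1 *Prkag2* window the matches on the strands overlapped, 218 and 215 bases before the start. A match is a run of letters and not a binding site.

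*Ckmt2* encodes the creatine kinase that sits between the mitochondrial membranes of striated muscle and makes phosphocreatine from newly exported ATP. It lies on chromosome 13 from 91853387 to 91876885 on the minus strand (GRCm38) and has 1 annotated transcript, which shares 84 exon bases with the antisense gene *1700119I11Rik*, not analysed here. It was at 183, 184 and 180 CPM in WT a, b and c and at 118, 119 and 112 CPM in KO a, b and c. All KO libraries lay under all WT libraries, and the gap between the groups was wider than the range within either. The means were 182 ± 2.43 CPM in WT hearts and 116 ± 3.83 CPM in KO hearts (SD, n = 3 in each group). The log2 fold change was -0.65 (standard error 0.0369, 95% interval -0.72 to -0.57, adjusted p = 1.43e-13 by the quasi-likelihood test of edgeR, Benjamini-Hochberg adjusted), and 5.83% of all genes had a larger absolute change. The call held in all 16 other fits of the whole table, with log2 fold changes from -0.66 to -0.60.

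*Ckm* encodes the cytosolic muscle creatine kinase, part of which is bound to the sarcomere, and lies on the plus strand of chromosome 7 (19404776 to 19422841). It was at 1108, 1111 and 1128 CPM in the WT and at 1017, 1026 and 1032 CPM in the KO libraries. The groups did not overlap, and the gap between them was wider than the range within either, though small against the level of the gene. The log2 fold change was -0.12 (standard error 0.0234, 95% interval -0.17 to -0.07, adjusted p = 2.29e-04, same test), smaller than the change of 52.4% of all genes, and the call held in all 16 other fits. An antisense gene, *A930016O22Rik*, shares 451 exon bases with *Ckm* and fell from 15.3 to 8.19 CPM; the strand setting of the counting is not given in the sources used here, so reads on the shared bases cannot be told apart.

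*Ckb*, the creatine kinase of brain and many other cell types, lies on the minus strand of chromosome 12 (111669361 to 111672338). It was at 147, 143 and 150 CPM in the WT and 143, 138 and 148 CPM in the KO libraries. The groups overlapped, and the log2 fold change was -0.03 (95% interval -0.11 to 0.05, adjusted p = 0.561, quasi-likelihood test of edgeR, Benjamini-Hochberg adjusted). The interval leaves room for a decrease or an increase of a few percent, with fold limits of 0.926 and 1.03. Of the 50-base words of *Ckb* transcripts, 9.98% also occur in transcripts of other genes, mostly *Gm12892*, so a part of its reads may have been placed elsewhere. The share was 0% for each of the other 8 genes. Words were compared on the strand of the transcript only, so exon bases shared with genes on the opposite strand are not in these shares.

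*Slc6a8*, the transporter that brings creatine into the cell, lies on the plus strand of chromosome X (73673150 to 73682502). It was at 130, 128 and 134 CPM in the WT and 132, 129 and 128 CPM in the KO libraries, with no separation between them. The log2 fold change was -0.01 (95% interval -0.09 to 0.06, adjusted p = 0.829, same test). Among the 475 X-linked genes tested, 72 were lower and 48 higher, with a median log2 fold change of -0.03. For comparison, the whole set of 13804 genes had 15.7% of its members lower, 14.6% higher and a median of 0.00. Both genes of creatine synthesis were at low levels. *Gatm*, which makes guanidinoacetate, was at 5.35 ± 1.05 and 4.46 ± 0.265 CPM in WT and KO hearts, and *Gamt*, which methylates it to creatine, at 7.34 ± 0.831 and 7.66 ± 0.149 CPM (SD, n = 3 in each group). Neither passed the test (log2 fold changes -0.27 and 0.06, adjusted p = 0.190 and 0.763, edgeR with Benjamini-Hochberg adjustment). Without WT c, *Gatm* did (-0.41, adjusted p = 0.0377), so 1 library decided its call. *Ckmt1*, the ubiquitous mitochondrial creatine kinase, was not analysed here.

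Because genes of different length collect different numbers of reads, levels of the 9 genes were ordered as CPM per kilobase of exons (RPKM). In WT hearts *Ckm* led at 383 ± 3.77 RPKM, followed by *Ckmt2* at 123 ± 1.63, *Ak1* at 115 ± 2.96, *Prkaa2* at 55.8 ± 2.62 and *Ckb* at 50.6 ± 1.21 RPKM (SD, n = 3). *Ak3* at 35.2 ± 1.75, *Slc6a8* at 25.1 ± 0.524, *Prkag2* at 18.5 ± 0.200 and *Prkaa1* at 8.58 ± 0.660 RPKM completed the order. The libraries of each gene did not overlap with those of the next in either genotype. In KO hearts the order was the same with 1 exception: *Ckmt2*, at 78.4 ± 2.58 RPKM, had dropped under *Ak1*, at 116 ± 0.903 RPKM. With the length of the longest transcript in place of the union of exons, *Ak1* was at 143 and 144 RPKM in WT and KO hearts, above *Ckmt2* in both, and *Prkag2*, at 36.0 RPKM in WT hearts, lay above *Slc6a8*, at 33.0 RPKM, so these places in the order depend on the length used.

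**Figure D2:**
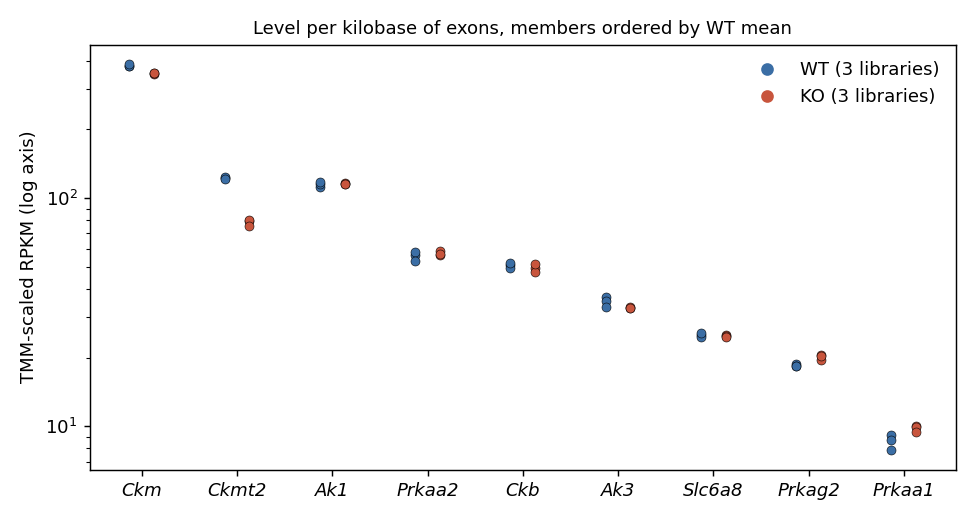
TMM-scaled RPKM (log axis) of the 9 genes in each WT (blue) and KO (red) library, ordered by the WT mean. *Ckm* stood at 383 RPKM in WT and 352 RPKM in KO hearts, above every other gene of the 9, and *Ckmt2* moved from 123 to 78.4 RPKM.

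The 3 creatine kinases together summed to 556 ± 3.20 RPKM in WT and 480 ± 1.49 RPKM in KO hearts (SD, n = 3 in each group). *Ckmt2* made up 22.2, 22.4 and 21.6% of this sum in the WT libraries and 16.6, 16.7 and 15.7% in the KO libraries. The share of *Ckm* was 68.9% ± 0.281 in WT and 73.4% ± 0.296 in KO hearts, and that of *Ckb* 9.10% ± 0.179 and 10.3% ± 0.372 (SD, n = 3 in each group). The creatine kinase RNA of KO hearts thus held relatively less of the mitochondrial form and more of both cytosolic forms, while the level of *Ckm* itself was lower and *Ckb* did not pass the test.

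Ratios taken inside a library need no scaling between libraries. Per base, *Ckm* was 3.12 times *Ckmt2* in WT and 4.49 times in KO hearts (geometric means, n = 3), with log2 ratios of 1.63, 1.62 and 1.68 against 2.14, 2.13 and 2.23. The log2 ratio of *Ckm* to *Ckb* was 2.91, 2.95 and 2.90 in the WT and 2.82, 2.89 and 2.79 in the KO libraries. Both ratios separated the groups in every library, one rising and the other falling in KO hearts. A two-sided exact permutation test gave p = 0.1 for each of these differences (0.133 after Benjamini-Hochberg adjustment over 4 ratios), which is the smallest p that 3 against 3 libraries allow, so the threshold of 0.05 could not be reached.

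**Figure D3:**
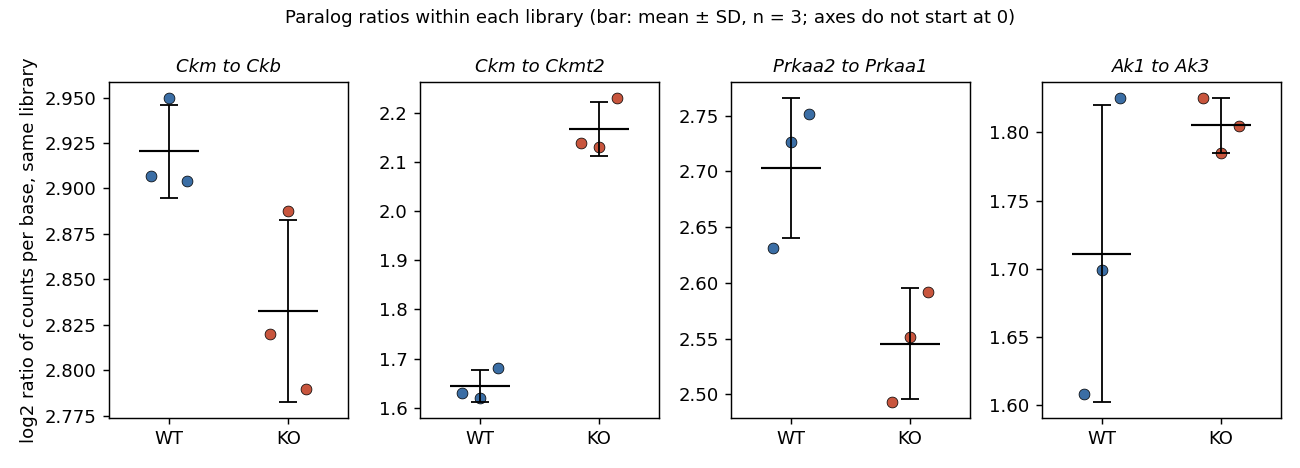
Log2 ratio of the counts per base of 4 gene pairs in the same library (vertical axes, not starting at 0), for WT (blue) and KO (red) hearts with mean ± SD (n = 3). The *Ckm* to *Ckmt2* ratio lay at 1.62 to 1.68 in WT and 2.13 to 2.23 in KO hearts, while the *Ak1* to *Ak3* ratios of the groups overlapped.

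Most, but not all, ventricular cardiomyocyte genes fell along with *Ckmt2* and *Ckm*. The 10 ventricular cardiomyocyte genes had a median log2 fold change of -0.21, and *Ryr2*, the calcium release channel, and *Actn2*, the Z-disc protein, fell by 0.31 and 0.25 on the log2 scale. *Hey2*, a transcriptional repressor of the compact ventricle, and *Myh7*, the most abundant of the 10, were higher, with log2 fold changes of 0.33 and 0.05. The change of *Ckmt2* was larger than that of each of these 10 genes and the change of *Ckm* smaller than that of 7 of them; the part of these genes in the result was not tested. In bulk tissue, fewer cells of a type and less RNA per cell cannot be told apart. Atrial genes were also at different levels, summing to 637 to 650 CPM in WT and 1039 to 1060 CPM in KO hearts over the 7 that were tested. Of these, 3 were higher in KO hearts: *Nppa* (372 to 597 CPM), *Myl4* (142 to 305 CPM) and *Myl7* (46.3 to 77.7 CPM), and 1 was lower, *Kcna5* (33.8 to 18.7 CPM). *Nr2f1*, *Nr2f2* and *Bmp10* did not pass the test, so the sum mostly follows *Nppa* and *Myl4*. Of 7 fibroblast genes 4 were lower, of 7 endothelial and of 7 smooth muscle genes 3 were lower and 1 higher each, of 6 epicardial genes 3 were higher, and of 8 immune genes 1 was lower. Skeletal muscle also expresses *Ckm* and *Ckmt2*; its 4 genes that were tested summed to 5.10 to 7.71 CPM in WT and 6.17 to 7.52 CPM in KO hearts. Of these, *Tnni2* and *Myh3* were lower and *Myh8* higher, with log2 fold changes of -0.96, -1.01 and 1.08. The other 6 of the list, *Myod1* and *Myog* among them, were not analysed here.

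The genes whose profile over the 6 libraries was most like that of *Ckmt2* were *Tob2*, *Rasgef1b* and *Scd1*, with a root mean square difference in centred log2 CPM of 0.0253, 0.0256 and 0.0287 out of 9493 genes averaging 10 CPM or more. For *Prkaa1* they were *Lcor*, *Crebrf* and *Zfp160*, at 0.0225, 0.0229 and 0.0239. The 6 libraries fall into 2 groups, so genes with a similar difference between the genotypes and little spread come out alike by this measure.

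The adenylate kinases followed no common direction. *Ak1*, the cytosolic adenylate kinase of muscle, on the plus strand of chromosome 2 (32621758 to 32635058), was at 291, 299 and 307 CPM in the WT and at 303, 299 and 298 CPM in the KO libraries. The KO values fell inside the WT range, the log2 fold change was 0.00 (95% interval -0.06 to 0.07, adjusted p = 0.923, quasi-likelihood test of edgeR, Benjamini-Hochberg adjusted), and 98.0% of all genes had a larger absolute change. The fold limits of that interval were 0.960 and 1.05. *Ak3*, which passes phosphate between GTP and AMP in the mitochondrial matrix, lies on the minus strand of chromosome 19 (29020833 to 29047961). It was at 115, 111 and 104 CPM in the WT and 103, 104 and 103 CPM in the KO libraries. WT c lay beside the KO libraries and the groups overlapped by a narrow margin. The log2 fold change was -0.09 (95% interval -0.18 to -0.01, adjusted p = 0.0970, same test). Without WT c it was -0.13 with an adjusted p of 0.00680, so this 1 library decided the call. *Ak3* shares 430 exon bases with *Cdc37l1* on the opposite strand, which was at 238 and 239 CPM in WT and KO hearts. The log2 ratio of *Ak1* to *Ak3* was 1.71 ± 0.109 in WT and 1.81 ± 0.0201 in KO hearts (SD, n = 3 in each group), with overlapping libraries (exact permutation p = 0.4, two-sided).

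Of the adenylate kinases beside these, *Ak4* moved furthest. *Ak4*, a mitochondrial matrix member of the family, was at 31.7, 30.7 and 31.5 CPM in the WT and at 58.4, 64.3 and 59.9 CPM in the KO libraries. The groups lay far apart, and its log2 fold change of 0.96 (standard error 0.0561, 95% interval 0.84 to 1.07, adjusted p = 2.54e-13, quasi-likelihood test of edgeR, Benjamini-Hochberg adjusted) was opposite in sign to that of *Ckmt2* and larger in size. A pseudogene, *Ak3l2-ps*, shares 10.2% of the 50-base words of *Ak4*, and its part was not tested. *Ak6*, a nuclear member whose transcripts share 55.7% of their words with *Taf9*, had a log2 fold change of -0.29 (adjusted p = 0.0759). The call of *Ak6* depended on single libraries: it passed without WT a (-0.37, adjusted p = 0.0392), WT c (-0.32, adjusted p = 0.0466) or KO c (-0.42, adjusted p = 0.0290), and was at -0.19 without WT b or KO b. *Ak5*, near 1 CPM, had a log2 fold change of -0.04 with an interval of -0.66 to 0.57. *Ak7*, *Ak8* and *Ak9* were not analysed here.

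Among AMPK subunits, the members that passed the test were higher in KO hearts, by small amounts. *Prkaa1*, the catalytic subunit alpha1 found in most cell types, on the plus strand of chromosome 15 (5143861 to 5181899), was at 42.5, 40.7 and 36.5 CPM in the WT and at 46.5, 46.4 and 43.9 CPM in the KO libraries. All KO libraries lay above all WT libraries, with WT c lowest. The log2 fold change was 0.19 (standard error 0.0596, 95% interval 0.07 to 0.31, adjusted p = 0.0177, quasi-likelihood test of edgeR, Benjamini-Hochberg adjusted), and 36.5% of all genes had a larger absolute change. The call was lost without WT c (0.13, adjusted p = 0.0793), without KO a (0.17, adjusted p = 0.0769) and without KO b (0.18, adjusted p = 0.0646). *Prkaa1* had 556 to 878 counts per library, the fewest of the 9 genes.

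*Prkag2*, the gamma2 subunit that binds AMP, ADP and ATP and is known for inherited cardiomyopathy with abnormal conduction, lies on the minus strand of chromosome 5 (24862744 to 25100642). It was at 121, 119 and 120 CPM in the WT and at 127, 134 and 131 CPM in the KO libraries. The groups did not overlap. The log2 fold change was 0.12 (standard error 0.0378, 95% interval 0.05 to 0.20, adjusted p = 0.0147, same test), and 52.2% of all genes had a larger absolute change. The call was lost without WT b (0.11, adjusted p = 0.0668), KO b (0.11, adjusted p = 0.0818) or KO c (0.12, adjusted p = 0.0532), while the log2 fold change kept its sign. *Prkag2* shares exon bases with 2 antisense genes, 795 with *Prkag2os2* and 142 with *Prkag2os1*, and the latter was at 10.9 and 9.54 CPM in WT and KO hearts.

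*Prkaa2*, the catalytic subunit alpha2 that prevails in striated muscle, on the minus strand of chromosome 4 (105029874 to 105109890), was at 451, 461 and 421 CPM in the WT and at 448, 466 and 453 CPM in the KO libraries. The groups overlapped, and the log2 fold change was 0.04 (95% interval -0.03 to 0.10, adjusted p = 0.435, quasi-likelihood test of edgeR, Benjamini-Hochberg adjusted). Per base, *Prkaa2* made up 86.7% ± 0.509 of the alpha subunit RNA in WT and 85.4% ± 0.433 in KO hearts (SD, n = 3 in each group). The ratio of *Prkaa2* to *Prkaa1* was 6.51 in WT and 5.84 in KO hearts (geometric means, n = 3), lower in every KO than in every WT library. The exact permutation test of this difference, two-sided, gave its smallest possible p of 0.1.

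The subunits outside the 9 genes completed the complex. *Prkag1*, the most widely expressed gamma subunit, was at 50.5, 46.3 and 51.3 CPM in the WT and at 58.3, 59.2 and 59.8 CPM in the KO libraries. All KO libraries were higher, and the log2 fold change of 0.26 (standard error 0.0524, 95% interval 0.15 to 0.37, adjusted p = 3.82e-04, quasi-likelihood test of edgeR, Benjamini-Hochberg adjusted) was larger than those of *Prkaa1* and *Prkag2*; whether the subunits differed from each other was not tested. The scaffolding subunits *Prkab1* and *Prkab2* had log2 fold changes of 0.11 and 0.13 (adjusted p = 0.261 and 0.0761), and *Prkag3*, the gamma subunit of skeletal muscle, one of -0.13 (adjusted p = 0.436). *Prkab2* passed without WT c (0.16, adjusted p = 0.0200) and was at 0.08 without WT b. Of the 7 AMPK subunit genes, 3 were higher and 0 lower at the threshold, where 14.6% and 15.7% of all genes were. Without KO b, *Prkag1* alone passed (0.26, adjusted p = 0.00286), so that 1 of the 7 was higher. When library totals alone set the scale, without TMM, the median over all genes moved to 0.05 and *Prkab2* also passed (0.18, adjusted p = 0.0163).

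**Figure D4:**
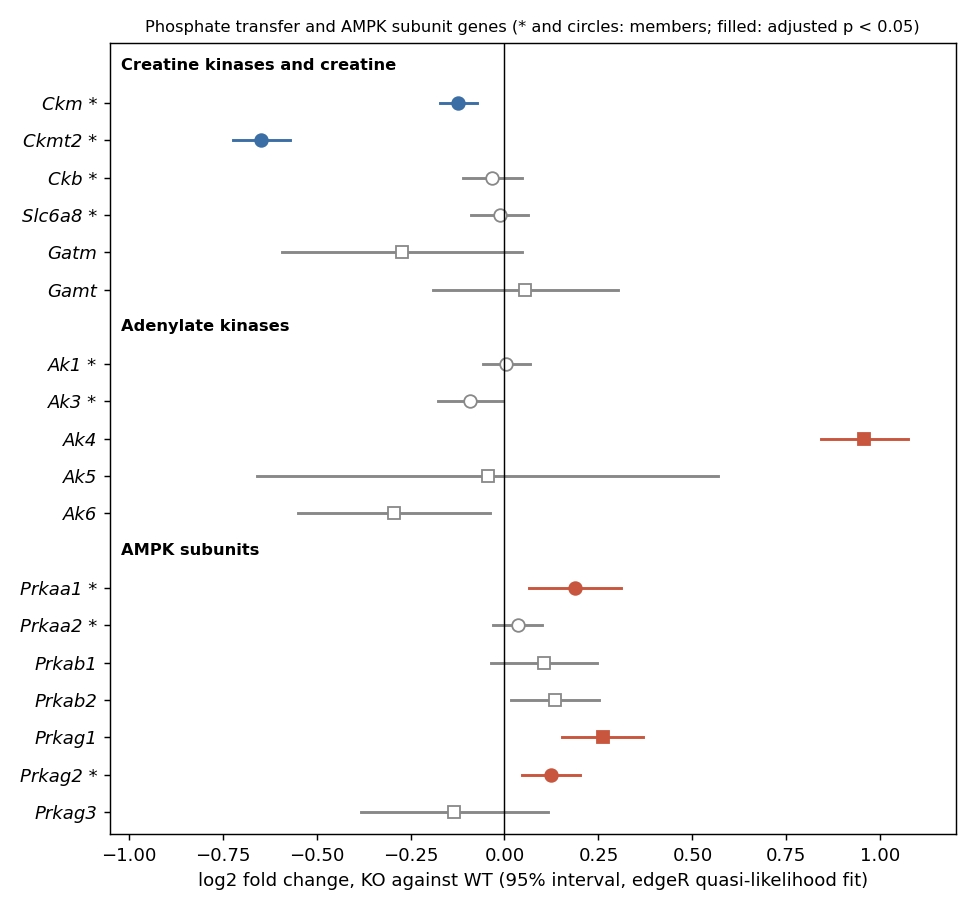
Log2 fold change of KO against WT (horizontal axis, 95% intervals from edgeR's quasi-likelihood fit) for the 9 genes (circles, starred names) and their relatives (squares), with filled symbols for an adjusted p under 0.05, blue lower and red higher in KO hearts. *Ckmt2* at -0.65 and *Ak4* at 0.96 stood far from 0, and the AMPK subunits that passed lay between 0.12 and 0.26.

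Genes around these enzymes were counted from lists chosen by function. Of 73 such genes that were tested, KO hearts held 14 (19.2%) at a lower and 11 (15.1%) at a higher level, against 15.7% and 14.6% of all genes, and the median log2 fold change was -0.02. Without TMM the number of higher genes was 21. Both shares were close to those of all genes. The counts of single lists below are small and are to be read against the same 15.7% and 14.6%.

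Upstream of AMPK, 1 of 8 genes for kinases and their partner proteins was lower and none higher. It was *Cab39*, the scaffold that activates the kinase LKB1, at 125 ± 2.51 and 115 ± 6.96 CPM in WT and KO hearts (SD, n = 3 in each group; log2 fold change -0.12, adjusted p = 0.0373, quasi-likelihood test of edgeR, Benjamini-Hochberg adjusted), a call lost in 5 other fits, those without WT b or KO a, with WT a and WT b summed, without TMM and by DESeq2. Among 13 AMPK-related kinases, which share the activation by LKB1 or a similar catalytic domain, 3 were lower and 0 higher. *Nuak1* was at 159, 165 and 168 CPM in the WT and at 62.3, 59.0 and 60.9 CPM in the KO libraries, with a log2 fold change of -1.43 (95% interval -1.52 to -1.35, adjusted p = 1.96e-20), larger in size than that of any of the 9 genes. The others were *Sik1* at -0.81 and *Nuak2* at -0.54, named after their values were seen.

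Among 17 substrates and partners of AMPK, 5 were lower and 6 higher. The largest increase was in *Fnip2*, a folliculin partner that binds AMPK, from 50.2 ± 1.74 to 69.7 ± 0.767 CPM (SD, n = 3 in each group; log2 fold change 0.47). The other higher genes were *Flcn*, *Tbc1d4*, *Pfkfb2*, *Fnip1* and *Tsc2*, with log2 fold changes of 0.43, 0.23, 0.21, 0.17 and 0.12. The lower genes included *Sesn1*, *Ppargc1a*, *Tbc1d1* and *Acaca*, with log2 fold changes of -0.41, -0.26, -0.23 and -0.12. Apart from *Fnip2*, the genes named here were chosen after their values were seen. For *Acaca*, 30.4% of the 50-base words also occur in transcripts of other genes, mostly *Gm5182*. *Ppargc1a* encodes PGC-1alpha, a coactivator of mitochondrial genes, and was at 338 ± 2.72 CPM in WT hearts and 282 ± 2.73 CPM in KO hearts (SD, n = 3 in each group).

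Enzymes of adenine nucleotide turnover also went both ways, with 3 of 11 lower and 2 higher. *Nt5e*, which makes adenosine from AMP at the cell surface, had a log2 fold change of -0.37, and *Aprt*, which salvages adenine to AMP, one of 0.28 (adjusted p = 3.01e-04 and 0.00193, quasi-likelihood test of edgeR, Benjamini-Hochberg adjusted). Of 8 other nucleotide kinases, *Nme2* was lower (-0.17) and *Nme6* higher (0.40), and 47.0% of the words of *Nme2* occur in the readthrough gene *Gm20390*. Of 6 genes for the exit of ATP and phosphocreatine from mitochondria or the entry of phosphate, 1 was lower and none higher. It was *Slc25a4*, the ADP/ATP carrier of heart muscle that works next to *Ckmt2*, at 2085 ± 50.5 CPM in WT hearts and 1806 ± 23.0 CPM in KO hearts (SD, n = 3 in each group; log2 fold change -0.21, adjusted p = 6.85e-08, same test).

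**Figure D5:**
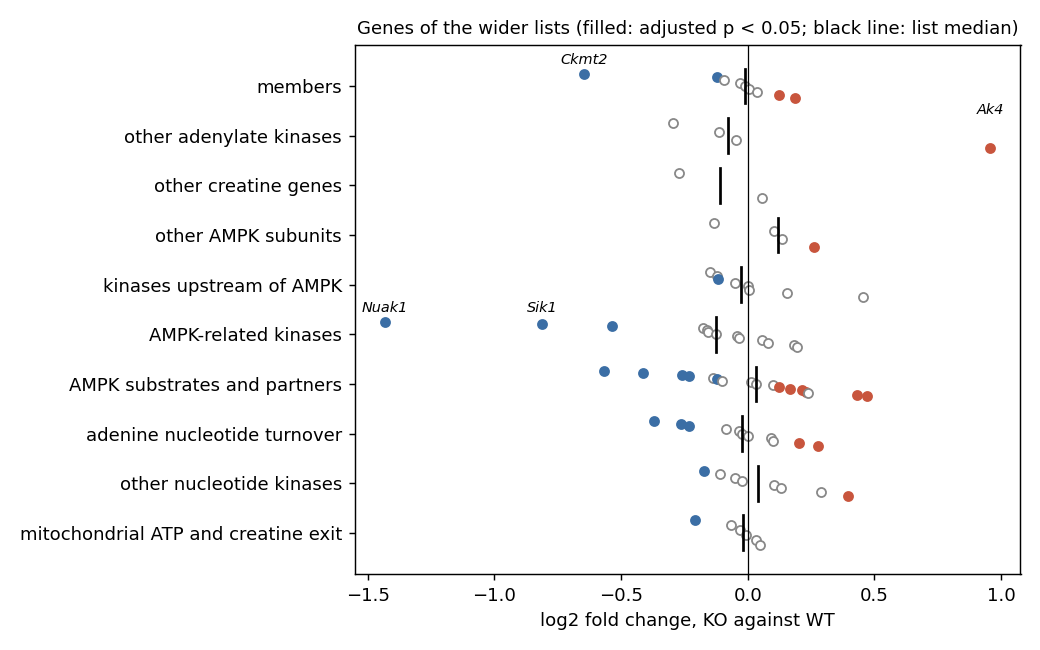
Log2 fold change of KO against WT (horizontal axis) for each tested gene of the 9 and of the surrounding lists (rows), filled where the adjusted p was under 0.05 (blue lower, red higher), with a black line at the median of each row. *Nuak1* at -1.43 and *Ak4* at 0.96 were the extremes, and the medians lay between -0.12 and 0.12.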

How the data were processed

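Total RNA of WT and *Pkm1*-KO heart tissue at E18.5 was depleted of ribosomal RNA and sequenced in paired ends by the authors. They describe the 3 libraries per genotype as biological replicates. The submitters' processing notes name cutadapt 1.18, HISAT2, StringTie and the mm10 build; the program that counted reads, its annotation and its strand setting are not given in the sources used here. The values the authors deposited are counts of reads on each gene symbol, with a column for each library and no normalization. The same table holds their own comparison (fold changes and mean levels on the log2 scale, with p-values before and after adjustment), which was not used. No gene in the table had fewer than 59 counts over the 6 libraries.

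The 9 genes were found by exact symbol. The genes, the surrounding lists, the tests and the alternatives were chosen with earlier results of these data known. Counts were scaled by TMM and tested with genotype as the only term by edgeR's quasi-likelihood test (edgeR 4.0.16, R 4.3.3) on the 13804 genes that passed filterByExpr, with Benjamini-Hochberg adjustment over all of them; all 9 genes passed that filter. CPM and RPKM are TMM-scaled, and RPKM used the union of exons in GENCODE vM21 (GRCm38). A call is an adjusted p under 0.05. With 3 libraries per genotype, a p-value weighs a difference against the spread between these libraries. For each gene, edgeR's estimate of that spread also draws on the other genes tested, so small p-values rest partly on them. Ratios within a library were compared by two-sided exact permutation tests. Named beside the 9 genes were all other adenylate kinases, creatine genes and AMPK subunits, the gene with the largest called change in each direction of every other list, *Pkm*, and the 3 genes with the most similar profile for the 2 genes that changed most. Some genes that this rule names are not reported here. Others are said to be named after their values were seen, apart from marker genes, sex-linked genes, overlapping genes and genes sharing sequence. Alternatives were other scalings (totals only, RLE size factors, and TMM after leaving out *Rn45s*, a ribosomal RNA gene), other tests (DESeq2 1.42.0, edgeR's exact test, limma 3.58.1 voom), other filters on low counts, X and Y genes left out, WT a and WT b summed, and each library left out in turn. The scripts were tested on simulated data. Python 3.11.15 with matplotlib 3.10.9 drew the figures.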

Additional observations from a re-analysis of the deposited data

How the results depend on the processing

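The log2 fold changes of *Ckmt2* and *Ckm* kept their direction and their side of the threshold in all 16 alternative fits, and those of *Prkaa1*, *Prkag2* and *Ak3* changed calls only when 1 library was left out, with the values given above. With each library left out in turn, 2 to 3 of the 9 genes were lower and 0 to 2 higher; the 0 came without KO b, and 1 was higher without WT b, WT c, KO a or KO c. Values near 0 changed sign: *Ckb* was at 0.0154 and *Slc6a8* at 0.0350 when totals alone set the scale, and *Ak1* at -0.00534 after summing WT a with WT b. With each library left out, *Ak1* ranged from -0.0149 to 0.0212, *Slc6a8* from -0.0287 to 0.00176 and *Prkaa2* from -0.00357 to 0.0610 (log2). Outside the 9 genes, calls of *Gatm*, *Ak6*, *Prkab2* and *Cab39* also changed, as given above. *Ak5* was at 0.0024 with totals alone, and with each library left out *Ak5* ranged from -0.31 to 0.15 and *Gamt* from -0.0178 to 0.135. Totals alone raised the number of higher genes in the surrounding lists from 11 to 21, and over all genes moved the split from 2168 lower and 2011 higher to 1527 and 2911 (48.1% to 65.6% of calls higher). DESeq2's Wald test gave 1639 lower and 1362 higher genes. With the length of the longest transcript, WT and KO levels were 143 and 144 RPKM for *Ak1*, 39.1 and 36.8 for *Ak3*, 407 and 374 for *Ckm*, 36.0 and 39.2 for *Prkag2*, and 33.0 and 32.7 for *Slc6a8*. The 4 ratios within a library kept their sign without each library in turn. No paired analysis was possible because no replicate numbers are given in the count table. Each of the 9 genes had 556 or more counts in every library. The limits are the 3 libraries per genotype, the sex of the embryos, which cannot be told apart from genotype, and bulk RNA, which shows neither enzyme nor AMPK activity.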
